A study of Drosophila melanogaster with 32 samples.

Results

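The intermediate passages of cell line R5 were compared with those of cell line R4, both from Drosophila melanogaster. The members were chosen by line and passage as the sample titles give them, and came to 8 of the 32 libraries of the series. R5 gave 3 libraries, at passages 6, 7 and 8, and R4 gave 5, at passages 5, 6, 7, 9 and 11. Passage numbers count how often the cells had been split and replated. The remaining libraries are the early (passages 2 to 4) and late (passages 16 to 19) samples of both lines, all samples of another line, R1, and R4 at passage 12.

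All cells were grown in flasks in Schneider's medium with fetal bovine serum and antibiotics, and no other treatment is labelled. What tissue and genotype R5 and R4 came from, and which cell types they hold, is not given in the sources used here. Each line was sampled as a time series, and no label names more than 1 culture of a line, so its libraries are taken here as successive passages of 1 culture. Read so, the p-values below measure the spread between passages, which may be technical, and not that between independent cultures. Total RNA was depleted of ribosomal RNA with a kit made for human, mouse and rat RNA, and sequenced.

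Cultured Drosophila cells commonly start as a mixture of embryonic cell types, and a line arises as some of them keep dividing. Which lineage a culture resembles is usually read from its transcription factors, among them the Hox genes that mark position along the body and the factors that specify muscle, blood and nerve. Temporal factors such as chinmo, Imp and Syp mark how far a progenitor has moved from an early to a late state.

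Total counts per library were 7830770 to 9119299 in R5 and 10888029 to 13613326 in R4, so every R5 library was shallower than every R4 library. The part of this depth gap in the results was not tested. The most abundant gene, the mitochondrial large ribosomal RNA mt:lrRNA, took 3.54 to 4.21% of the counts in R5 and 4.15 to 5.48% in R4. Levels are given as CPM, that is counts relative to a library size set by edgeR's TMM scaling. They are not divided by gene length, so they compare libraries and not genes. Library values are listed in order of passage, 6, 7 and 8 for R5 and 5, 6, 7, 9 and 11 for R4. Differences are log2(R5/R4) from edgeR's quasi-likelihood fit with their standard error (SE), and p-values were adjusted by the Benjamini-Hochberg method over all 9177 genes tested. A gene is called when its adjusted p was under 0.05, and rose or fell is said of called genes and means higher or lower in R5. Whether the counting used the strand of the reads is not given in the sources used here. Of the 97 genes given below with values, 45 overlap another annotated gene or element, 36 of them one on the other strand, so part of their reads may belong to that neighbour.

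R5 and R4 stood apart across much of the transcriptome. Of the 9177 genes tested, 3462 were called (37.7%), 1727 of them higher in R5 (18.8%) and 1735 lower in R5 (18.9%). Most differences were small: the median size over called genes was 0.57 on the log2 scale. A log2 difference over 1 was reached by 723 genes called higher and 432 called lower, and one over 4 by 68 and 23 genes. In 1753 genes (19.1%) all R5 libraries lay above all R4 libraries, and in 1826 (19.9%) all lay below. The 3462 called genes included 2979 whose libraries did not overlap. In 86 of the 97 genes given below with values the libraries of the lines did not overlap, in part because the rule that named them asked for it. The 11 exceptions are abd-A, Ubx, Act79B, srp, Hml, Pvr, tj, Egfr, N, roX2 and vn. Because so many genes were called, a gene list with a like share of called members is not particular to that list. Among lists given below without their called share, it was 66.7% for BMP, 60.0% for FGF and PDGF/VEGF and 53.8% for dosage compensation and sex. It was 52.9% for ecdysone, 50.0% for somatic gonad and for Toll and Imd, and 45.5% for Hedgehog. Insulin and TOR had 42.1%, heat shock 36.4%, Hippo 29.4%, glycolysis 28.6% and glia 27.3%. Neuroblast and proneural had 21.4%, cytosolic ribosomal proteins 21.6% and mitochondrial ones 20.8%.

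The first principal component of the 8 libraries held 64.4% of the variance of log2 CPM and separated the lines, with R5 at -59.67 to -44.28 and R4 at 19.33 to 37.63. The second held 12.8% and followed the passage number in both lines. In R4 passage 5 was at 37.5, passage 6 at 15.14, passage 7 at -2.13, passage 9 at -17.29 and passage 11 at -25.56. In R5 passage 6 was at 4.44, passage 7 at -1.31 and passage 8 at -10.79. R4 at passage 5 was the R4 library nearest to R5 on the first component. Over all genes, pairs of R5 and R4 libraries differed by a root mean square of 0.871 to 1.128 log2 units. Pairs within R5 differed by 0.497 to 0.604 and pairs within R4 by 0.368 to 0.721, so every pair between the lines lay farther apart than every pair within a line.

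**Figure D1:**
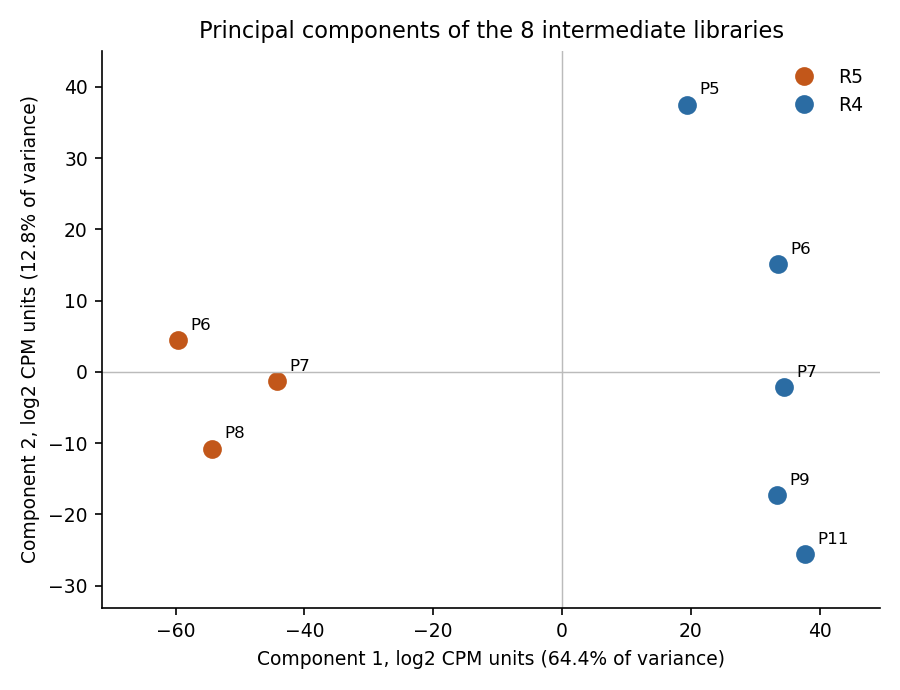
Position of the 8 intermediate libraries on the first (64.4% of variance) and second (12.8%) principal component of log2 CPM, R5 in orange and R4 in blue, with the passage beside each point. The R5 points lie between -59.67 and -44.28 on the first component and the R4 points between 19.33 and 37.63, with both lines ordered by passage along the second and R4 spread wider.

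Among the genes with the largest excess in R5, of those with a mean of at least 10 CPM and no overlap between lines, were homeodomain transcription factors, an adhesion gene and a matrix gene. The homeodomain factor unplugged (unpg, FBgn0015561, chromosome arm 2R), known from the nervous system, stood at 149, 144 and 146 CPM in R5, against 3.56, 2.26, 1.80, 1.08 and 2.06 CPM in R4. All R5 libraries were far above all R4 libraries and close to each other (log2 6.08 ± 0.35 SE, adjusted p = 9.93e-12, edgeR). R1 averaged 86.4 CPM at its intermediate passages, between the 2 lines. The thoracic Hox gene Antennapedia (Antp, FBgn0260642, 3R) stood at 327, 204 and 262 CPM in R5, against 5.67, 5.82, 6.62, 8.14 and 5.60 CPM in R4, again without overlap (log2 5.37 ± 0.40, adjusted p = 4.25e-10, edgeR). The head homeodomain gene ocelliless, also called orthodenticle (oc, X), stood at 23.4, 28.9 and 29.6 CPM in R5, against 0.872, 0.809, 0.654, 0.288 and 2.24 CPM in R4 (log2 4.84 ± 0.45, adjusted p = 1.46e-08, edgeR), and with R4 at passage 12 added the log2 difference was 3.54 (adjusted p = 3.39e-05). In R1 the means were 12.4 CPM for Antp and 0.376 CPM for oc, both nearer to R4 than to R5.

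The immunoglobulin-family adhesion gene klingon (klg, 3R) had 29.8, 42.1 and 52.1 CPM in R5, against 0.726, 0.404, 0.899, 0.577 and 0.467 CPM in R4. Its R5 libraries did not overlap with R4 (log2 6.04 ± 0.43, adjusted p = 2.38e-10, edgeR). Him (X), whose protein holds back the muscle factor Mef2 in progenitors, had 50.5, 33.1 and 41.6 CPM in R5, against 1.02, 0.970, 0.899, 0.721 and 1.12 CPM in R4 (log2 5.46 ± 0.58, adjusted p = 1.02e-07, edgeR). Fam92 (2L), which encodes a membrane-binding protein of the ciliary base, had 104, 79.3 and 99.3 CPM in R5, against 0.218, 0.323, 0.409, 0.937 and 0.654 CPM in R4 (log2 7.50 ± 0.50, adjusted p = 1.12e-10, edgeR). The extracellular matrix gene faulty attraction (frac, 3L) averaged 39.0 ± 14.7 CPM in R5 and 0.632 ± 0.385 CPM in R4 (SD; log2 5.89 ± 0.75), and the cuticle protein gene Cpr11A averaged 21.1 ± 12.3 CPM in R5 and 0.186 ± 0.112 CPM in R4 (log2 6.72 ± 0.81). CG8492 averaged 34.6 ± 10.9 CPM in R5 and 0.156 ± 0.124 CPM in R4 (log2 7.68 ± 0.74).

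CG43060 (3R) had 299 reads over the R5 libraries and 2 reads over those of R4. The ratio of its shares of all reads was 371.9, with an exact (Clopper-Pearson) 95% counting interval of 102.1 to 3085 that covers counting error only. Its model overlaps CG43061 and CG43618 on the same strand, so its reads cannot be assigned to it with certainty. CG43618 itself had 29 reads in R5 and none in R4.

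The genes furthest below R4 included both prophenoloxidases of the crystal cells, blood cells that carry out melanization. PPO1 (FBgn0283437, 2R) had 4.79, 5.50 and 5.93 CPM in R5, against 29.0, 174, 444, 1076 and 319.8 CPM in R4. PPO2 (FBgn0033367, 2R) had 4.92, 6.88 and 4.10 CPM in R5, against 26.6, 214, 443, 799 and 257 CPM in R4. In both genes the R4 level was lowest at passage 5 and highest at passage 9, while the R5 libraries stayed within a few CPM of each other. Their log2 differences were -6.23 ± 1.31 for PPO1 (adjusted p = 0.000583, edgeR) and -6.04 ± 1.19 for PPO2 (adjusted p = 0.000309). Without R4 at passage 9 that of PPO1 was -5.48 (adjusted p = 0.00131, edgeR).

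Another 3 genes were low in R5 and, within R4, lowest at passage 5. firl (2L) had 0, 1.50 and 0.323 CPM in R5, against 13.3, 48.3, 54.1, 71.2 and 67.0 CPM in R4. CG33465 (2R), whose model overlaps tun on the other strand, had 0.738, 0.375 and 0.108 CPM in R5, against 8.35, 34.4, 45.0, 41.7 and 48.6 CPM in R4. CG31337 (3R) had 0.246, 3.50 and 0.323 CPM in R5, against 7.12, 30.1, 36.8, 37.3 and 70.6 CPM in R4. The lines did not overlap in any of the 3, and in firl and CG31337 the R5 library at passage 7 was the highest of its line. The log2 differences were -6.39 ± 0.78 for firl, -6.45 ± 0.70 for CG33465 and -4.77 ± 0.98 for CG31337 (adjusted p = 8.15e-07, 1.73e-07 and 0.000489, edgeR). Single R5 libraries set their size: without R5 at passage 7 the difference was -8.12 for firl and -6.93 for CG31337, and without R5 at passage 6 that of CG33465 was -7.19.

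Other genes of large difference were highest in the first R4 libraries. The homeodomain gene E5 (3R) had 0.492, 0.500 and 0.647 CPM in R5, against 22.4, 18.1, 15.8, 11.8 and 3.92 CPM in R4, and CG11425 (3L) had 1.97, 0.625 and 1.83 CPM in R5, against 61.0, 38.5, 34.3, 25.9 and 14.5 CPM in R4. Both were highest in R4 at passage 5 and lowest at passage 11, which was still above all R5 libraries (log2 -4.69 ± 1.001 and -4.54 ± 0.86, adjusted p = 0.000686 and 0.000211, edgeR). CG11317 averaged 1.66 ± 0.649 CPM in R5 and 45.6 ± 18.05 CPM in R4 (SD; log2 -4.77 ± 1.10), and CG15553 averaged 1.83 ± 0.407 CPM in R5 and 45.2 ± 18.4 CPM in R4 (log2 -4.61 ± 1.09), both highest in R4 at passage 6. The larval cuticle gene Lcp3 had 1 read over the R5 libraries and 1081 over the R4 libraries, with 0, 0.125 and 0 CPM in R5, against 14.96, 52.2, 10.4, 6.20 and 1.49 CPM in R4. The R4 to R5 ratio of its shares of all reads was 434.6, with an exact 95% counting interval of 77.83 to 17180. R4 at passage 6 held most of its R4 reads. The call was kept without that library, at a log2 difference of -7.36, and without the R5 library at passage 7, which held the only R5 read, at -10.62.

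**Figure D2:**
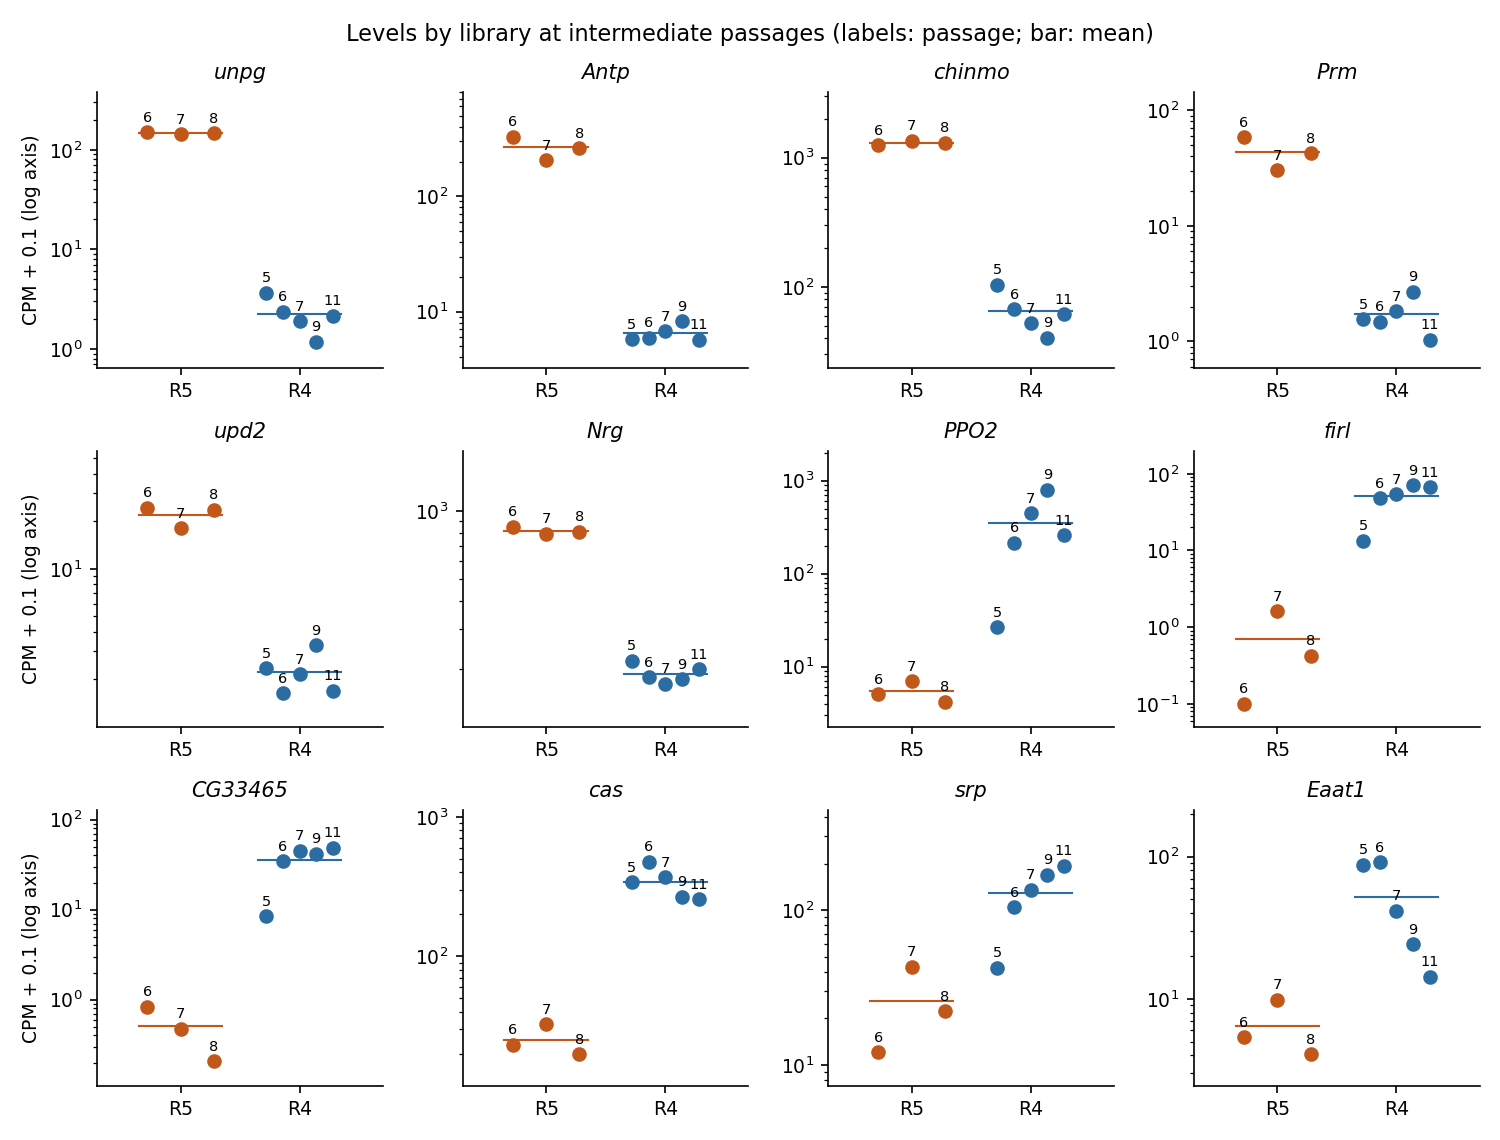
CPM plus 0.1 on a log axis in each intermediate library for 12 genes, R5 in orange on the left and R4 in blue on the right of each panel, with passages as labels and a bar at the mean. The first 6 genes are higher and the last 6 lower in R5, and only for srp do libraries of the lines overlap, at passage 7 of R5 and passage 5 of R4.

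Of 9 Hox genes and cofactors tested, 4 rose in R5 and 1 fell, with a median log2 difference of 1.66, against -0.01 over all genes tested. The called share was 55.6%, beside 37.7% of all genes tested. The list median is the value of abd-A, which was not called and was -0.61 without R5 at passage 6. Beside Antp, the anterior Hox gene Sex combs reduced (Scr) rose, with 92.7, 76.9 and 93.2 CPM in R5, against 6.10, 6.23, 4.25, 5.55 and 14.9 CPM in R4 (log2 3.58 ± 0.37, adjusted p = 7.61e-08, edgeR). R4 at passage 11 was the highest R4 library for Scr, and still far below every R5 library. Deformed (Dfd), a Hox gene of the head, rose at very low level, averaging 0.839 ± 0.447 CPM in R5 and 0.154 ± 0.144 CPM in R4 (SD; log2 2.33 ± 0.71, adjusted p = 0.0115). Abdominal-B (Abd-B), of the posterior abdomen, also rose (adjusted p = 0.000494, edgeR) and rested on 21 reads in R5 and 2 in R4, a ratio of 26.12 with a 95% counting interval of 6.384 to 229.8. The call of Dfd was lost without R5 at passage 6 (log2 1.81, adjusted p = 0.106, edgeR) and when R4 was limited to passages 5 to 7 (1.79, adjusted p = 0.0667). The Hox cofactor extradenticle (exd) fell, at 192 ± 6.53 CPM in R5 and 264 ± 13.8 CPM in R4 (SD; log2 -0.46 ± 0.07, adjusted p = 7.22e-06).

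The trunk Hox genes abd-A and Ubx were not called. abd-A had 20.7, 2.13 and 1.19 CPM in R5, against 7.70, 2.35, 1.72, 0.432 and 0 CPM in R4, so its first library in each line was the highest and the lines overlapped (log2 1.66 ± 1.08, adjusted p = 0.241, edgeR). Without R5 at passage 6 its difference was -0.61. With passage as a replicate block it was 2.10 and was called (adjusted p = 0.0172, edgeR). Ubx had 1 read over R5 and 9 over R4, a ratio of 0.276 with a 95% counting interval of 0.00631 to 1.995.

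Among 38 homeodomain and patterning factors tested, 10 rose and 8 fell (median log2 -0.26). Their called share was 47.4%, beside 37.7% of all genes tested. HGTX, an Nkx6-type factor, averaged 6.13 ± 2.60 CPM in R5 and 0.0945 ± 0.0643 CPM in R4 (SD; log2 5.86 ± 0.66). eyes absent (eya), a cofactor in eye, muscle and gonad development, had 41.6, 33.5 and 36.2 CPM in R5, against 1.53, 1.13, 1.64, 1.66 and 1.59 CPM in R4 (log2 4.61 ± 0.48, adjusted p = 9.13e-08, edgeR). The R4 libraries of eya lay within 1 CPM of each other, and R1 averaged 1.29 CPM. On the R4 side stood the head gap gene empty spiracles (ems), the neighbour of E5, with 0.369, 0.625 and 0.539 CPM in R5, against 8.13, 7.28, 7.44, 6.05 and 2.15 CPM in R4 (log2 -3.58 ± 0.79, adjusted p = 0.000970). The POU factor ventral veins lacking (vvl) fell as well, at 182 ± 36.4 CPM in R5 and 713 ± 46.4 CPM in R4 (log2 -1.97 ± 0.56, adjusted p = 0.00727), and R1 was at the R4 level, with a mean of 737 CPM.

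Castor (cas), a zinc finger factor that times neuroblast lineages, was abundant in R4 and fell in R5, with 23.1, 32.3 and 19.6 CPM in R5, against 340.1, 477, 367, 267 and 257 CPM in R4 (log2 -3.78 ± 0.63, adjusted p = 4.64e-05, edgeR). It was 1 of 3 called genes among the 14 tested neuroblast and proneural genes: cas and grainy head (grh) fell and Dichaete (D) rose (median log2 0.17). The defining neuroblast markers were low in both lines, with ase at 0.876 to 1.19 CPM in R5 and 0.0818 to 0.934 CPM in R4, dpn and wor under 2 CPM in every library, and mira at 1.60 to 3.88 CPM in R5 and 2.74 to 5.04 CPM in R4.

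Of 17 muscle specification genes tested, 10 rose and 4 fell in R5, with a median log2 difference of 0.86; 82.4% were called, against 37.7% of all genes. The 10 were twi, nau, zfh1, bin, slou, lbe, lbl, Him, how and htl, and the 4 were lmd, ap, Kr and Dr. slouch (slou), an identity factor of muscle founder cells, had 40.4, 19.3 and 20.4 CPM in R5, against 3.78, 1.46, 0.572, 0.144 and 0.747 CPM in R4. R5 did not overlap with R4, whose highest library was passage 5 (log2 4.28 ± 0.88, adjusted p = 0.000484, edgeR; 5.20 without R4 at passage 5). The mesodermal FGF receptor heartless (htl) had 449.6, 355 and 358 CPM in R5, against 136, 118, 131, 146 and 199 CPM in R4 (log2 1.41 ± 0.35, adjusted p = 0.00281). Drop (Dr), a homeodomain factor that gives another set of muscles and neural cells their identity, had 3.20, 3.50 and 1.94 CPM in R5, against 27.5, 22.6, 30.2, 40.9 and 20.6 CPM in R4 (log2 -3.31 ± 0.46, adjusted p = 4.71e-06).

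Twist (twi), the bHLH factor of early mesoderm and adult muscle precursors, had 244, 159.6 and 168 CPM in R5, against 40.9, 57.5, 77.0, 87.3 and 118 CPM in R4. The lines did not overlap, and the R4 value was highest at passage 11. Its difference of 1.32 ± 0.45 was called (adjusted p = 0.0228, edgeR), but not without R4 at passage 5 (log2 1.17, adjusted p = 0.0546) or without R5 at passage 6 (1.11, adjusted p = 0.108). Mef2, which switches on muscle differentiation genes, had 41.6, 43.4 and 40.6 CPM in R5, against 53.4, 48.8, 43.5, 46.3 and 55.2 CPM in R4 and was not called (log2 -0.24 ± 0.16, adjusted p = 0.255).

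Of 21 sarcomere genes tested, 7 rose and 2 fell (median log2 0.39). The called share was 42.9%, near the 37.7% of all genes tested. Paramyosin (Prm) had 58.6, 30.3 and 42.1 CPM in R5, against 1.45, 1.37, 1.72, 2.59 and 0.934 CPM in R4 (log2 4.73 ± 0.60, adjusted p = 1.39e-06, edgeR). sallimus (sls), the titin-like spring of the sarcomere, averaged 315 ± 19.7 CPM in R5 and 59.9 ± 6.80 CPM in R4 (SD; log2 2.39 ± 0.28). Act87E, Mlc2, Tm1, wupA and mspo also rose, while Obsc and Act79B fell. Act79B, an adult muscle actin, had 159.6, 145 and 76.9 CPM in R5, against 666, 445, 329, 216 and 97.3 CPM in R4, with overlap between R5 at passages 6 and 7 and R4 at passage 11, and its call (adjusted p = 0.0362, edgeR) was lost in 9 of 20 alternatives, among them without R4 at passage 5 (adjusted p = 0.108) or 6 (0.064) and without R5 at passage 6 (0.0597), 7 (0.0667) or 8 (0.155). The defining genes of differentiated muscle stayed low, with myosin heavy chain (Mhc) at 1.19 to 1.75 CPM in R5 and 0.736 to 3.41 CPM in R4, and up and Tm2 under 1 CPM in every library. Mlc2 stood at 12.9 to 28.2 CPM in R5 and 2.43 to 8.21 CPM in R4. The summed level of the sarcomere list was 1274 to 1299 CPM in R5 and 802 to 1346 CPM in R4.

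Of 15 myoblast fusion genes, 2 rose and 5 fell (median log2 -0.14), a called share of 46.7% beside 37.7% of all genes tested. rolling pebbles (rols), a scaffold at fusion sites, had 157 ± 16.8 CPM in R5 and 54.8 ± 5.64 CPM in R4 (SD; log2 1.51 ± 0.34, adjusted p = 0.000956, edgeR), and sns rose too. kin of irre (kirre), the adhesion receptor of founder cells, fell, with 82.4, 133 and 115 CPM in R5, against 326, 431, 365, 332 and 450.1 CPM in R4 (log2 -1.79 ± 0.30, adjusted p = 5.12e-05). The model of kirre spans many other genes. mbc, which activates Rac for fusion and engulfment, averaged 188 ± 4.35 CPM in R5 and 337 ± 79.5 CPM in R4 (log2 -0.84 ± 0.20), and Ced-12, Arf6 and Crk fell with it.

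Of 18 hemocyte genes tested, 8 fell in R5 (Hml, srp, Pvr, crq, NimC1, PPO1, PPO2 and Sr-CI), 2 rose (atilla and PPO3) and 8 were not called, with a median log2 difference of -1.16. The summed level of the list was 404 to 589 CPM in R5 and 575 to 3105 CPM in R4, so only the lowest R4 library overlapped with R5. The sum includes PPO1 and PPO2, whose R4 levels given above make up much of its spread within R4. Of the tested members, 55.6% were called, beside 37.7% of all genes tested. In bulk RNA, fewer cells of a type and less RNA per cell cannot be told apart. The GATA factor serpent (srp), needed for the blood lineage, had 11.9, 43.0 and 22.2 CPM in R5, against 42.3, 105, 136, 169 and 193 CPM in R4 (log2 -2.33 ± 0.63, adjusted p = 0.00510, edgeR). It was higher at each later passage of R4, and R4 at passage 5 lay just under R5 at passage 7. The plasmatocyte genes Hemolectin (Hml) and NimC1 fell too: Hml averaged 18.9 ± 11.8 CPM in R5 and 74.6 ± 46.2 CPM in R4 (SD; log2 -1.98 ± 0.56), and NimC1 averaged 4.83 ± 4.57 CPM in R5 and 29.6 ± 10.8 CPM in R4 (log2 -2.62 ± 0.94).

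The hemocyte marker He was not among those that fell, at 10.1 to 28.9 CPM in R5 and 5.58 to 23.7 CPM in R4. Part of the hemocyte calls rested on single libraries or on the passages compared. The number of members that fell was 4 without R5 at passage 6, 5 without R5 at passage 8 and 10 without R4 at passage 5. With R4 limited to passages 5 to 7 it was 5, and Hml (log2 -1.28, adjusted p = 0.0822, edgeR), NimC1 (-2.50, adjusted p = 0.0658) and Pvr (-0.98, adjusted p = 0.144) were not called. Hml was not called without R5 at passage 6 (adjusted p = 0.0529, edgeR) and had a log2 difference of -2.60 without R5 at passage 7. NimC1 was not called without R5 at passage 6 (adjusted p = 0.129) or passage 8 (0.112), and its difference was -3.70 without passage 7. The growth factor receptor Pvr averaged 73.9 ± 12.4 CPM in R5 and 196 ± 79.4 CPM in R4 (SD; adjusted p = 0.0229), and was not called without R4 at passage 11 (0.0541) or R5 at passage 6 (0.0804) or 8 (0.0802), nor with passage 4 counted as intermediate (log2 -0.69, adjusted p = 0.191). The 2 members that rose are known from lamellocytes, the blood cells that encapsulate parasites. atilla had 2.58, 5.25 and 1.29 CPM in R5, against 0.145, 0.0809, 0, 0 and 0.280 CPM in R4 (log2 4.82 ± 1.12, adjusted p = 0.00145; 4.18 without R5 at passage 7 and 5.48 without R4 at passage 11). PPO3 averaged 8.31 ± 3.38 CPM in R5 and 3.37 ± 0.731 CPM in R4 (SD; adjusted p = 0.00603; 0.053 without R5 at passage 6).

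All 7 tested temporal identity genes were called in R5, 4 higher and 3 lower (median log2 0.81). chinmo, a BTB zinc finger factor of early progenitor states, had 1244, 1353 and 1302 CPM in R5, against 104, 67.1, 52.2, 40.2 and 61.0 CPM in R4. R5 libraries were close to each other and far above R4 (log2 4.32 ± 0.55, adjusted p = 1.47e-06, edgeR). R1 averaged 67.5 CPM, with libraries from 17.0 to 215 CPM. Imp, the RNA-binding protein that goes with chinmo in young neuroblasts, had 1060.5 ± 73.9 CPM in R5 and 605 ± 40.4 CPM in R4 (SD; log2 0.81 ± 0.10, adjusted p = 1.56e-06). Its late counterpart Syncrip (Syp) fell, at 241 ± 17.8 CPM in R5 and 469.7 ± 38.1 CPM in R4 (log2 -0.96 ± 0.18, adjusted p = 0.000187). mamo, another zinc finger factor, rose with 458, 489 and 542 CPM in R5, against 141, 119, 100.1, 98.3 and 153 CPM in R4 (log2 2.02 ± 0.20), as did ab. Among the ecdysone-regulated late factors, Eip93F had 103, 149 and 115 CPM in R5, against 614, 578, 485, 463 and 515 CPM in R4 (log2 -2.12 ± 0.28, adjusted p = 2.91e-06), and broad (br) had 267 ± 33.0 CPM in R5 and 543 ± 74.2 CPM in R4 (log2 -1.03 ± 0.20, adjusted p = 0.000253). In each of these genes the libraries of the lines did not overlap.

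chinmo also belongs to the somatic gonad list, of which 4 of 10 tested genes rose (Sox100B, eya, esg and chinmo) and 1 fell (fax; median log2 0.52). traffic jam (tj), the Maf factor that defines gonadal soma, did not separate the lines, with 20.4, 2.13 and 2.59 CPM in R5, against 19.1, 5.42, 2.94, 0.649 and 0.0934 CPM in R4 (log2 0.53 ± 1.06, adjusted p = 0.731, edgeR). Its first library was the highest in each line. Without R5 at passage 6 its difference was -1.28, which was not called either.

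**Figure D3:**
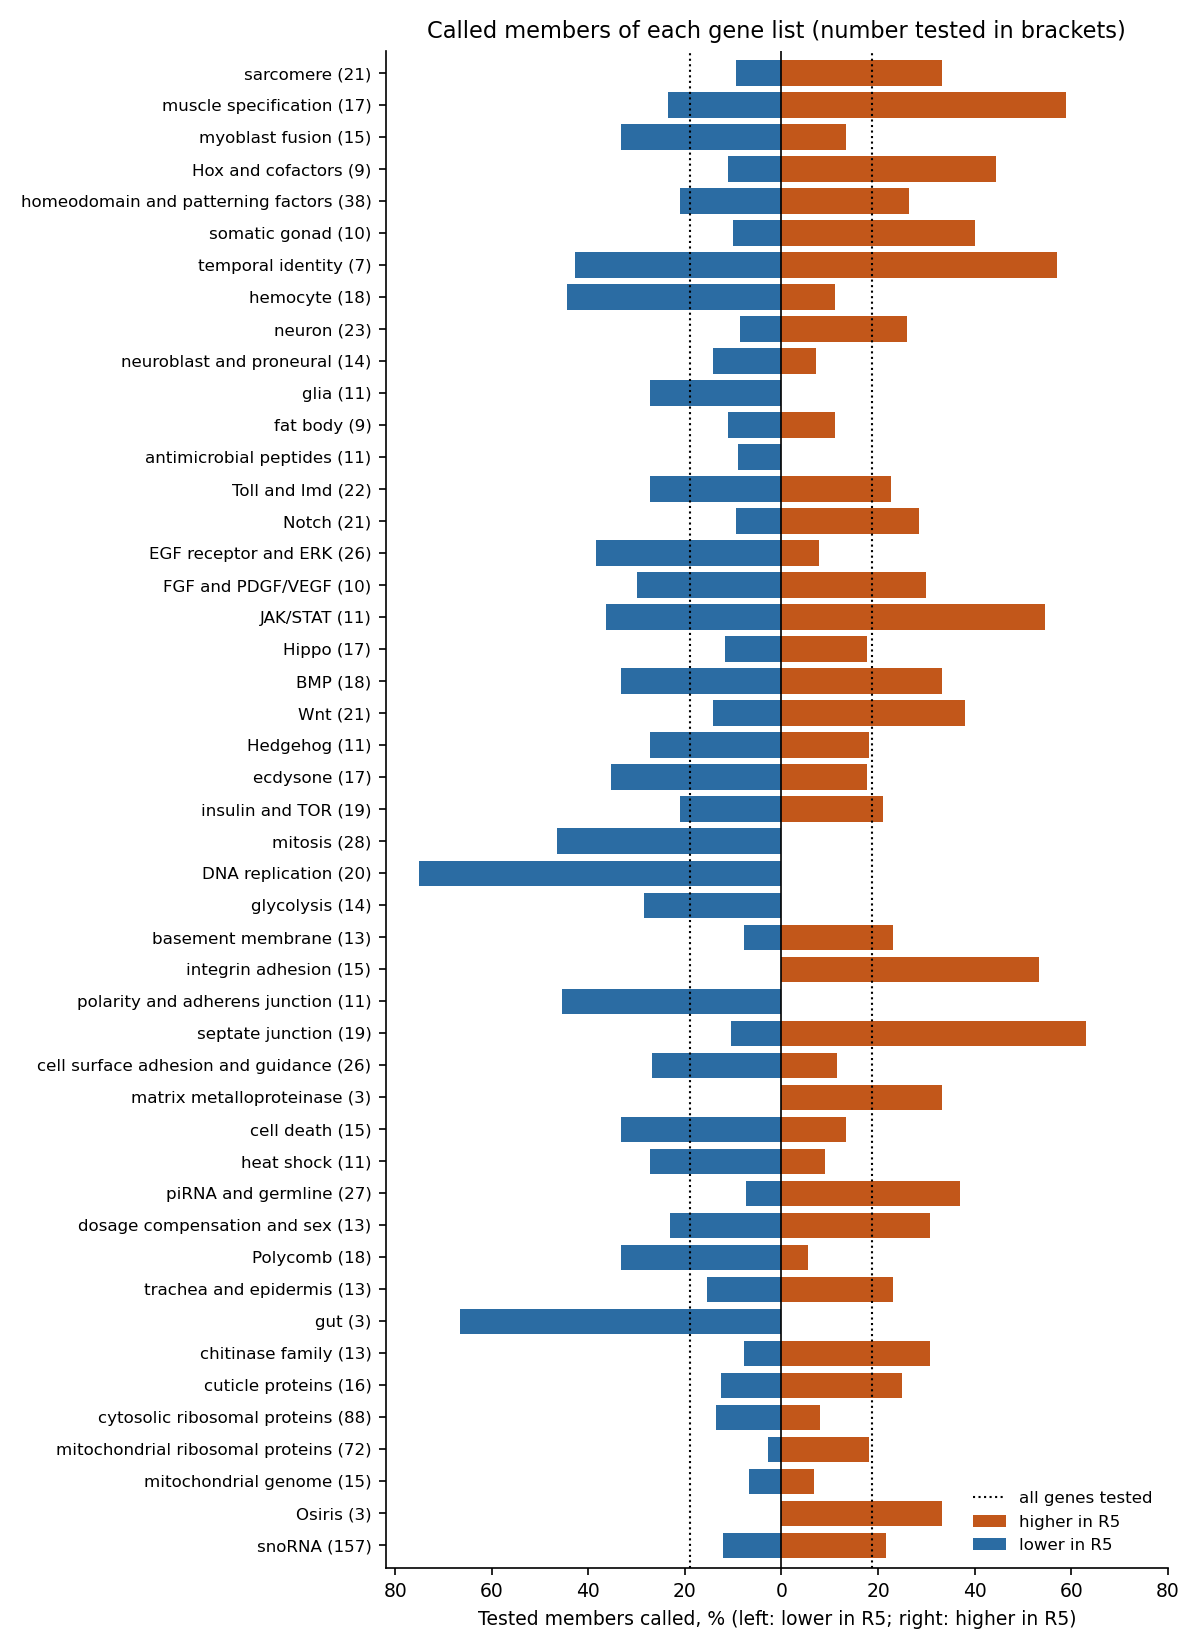
Share of the tested members of each gene list called higher in R5 (orange, right) or lower in R5 (blue, left), in percent, with the number tested in brackets; dotted lines mark the shares over all genes, 18.8% and 18.9%. DNA replication (15 of 20 lower), septate junction (12 of 19 higher) and muscle specification (10 of 17 higher) reach the largest shares in 1 direction among lists of more than 7 tested genes.

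Of 11 JAK/STAT pathway genes, 6 rose and 4 fell (median log2 0.34), a called share of 90.9% beside 37.7% of all genes tested. All 3 ligands of the receptor Domeless rose. upd2 had 24.2, 18.01 and 23.5 CPM in R5, against 2.25, 1.54, 2.04, 3.17 and 1.59 CPM in R4 (log2 3.35 ± 0.36, adjusted p = 1.54e-07, edgeR). upd3 had 21.5, 16.1 and 24.8 CPM in R5, against 3.63, 2.26, 2.70, 4.18 and 1.59 CPM in R4 (log2 2.84 ± 0.33, adjusted p = 3.65e-07), and upd1, at low level, had 2.09, 2.00 and 2.26 CPM in R5, against 0.218, 0.162, 0.0818, 0 and 0.0934 CPM in R4 (log2 4.13 ± 0.77, adjusted p = 0.000171). The 3 genes lie close together on X. The R1 mean lay between the lines for upd2, at 9.48 CPM, and upd3, at 13.1 CPM. R1 libraries ranged over 4.56 to 18.3 CPM for upd2 and 7.03 to 25.6 CPM for upd3, and so reached the R5 levels. The receptor dome and the feedback genes Socs36E and Ptp61F rose, while the transcription factor Stat92E fell slightly, at 233 ± 14.4 CPM in R5 and 289.9 ± 15.6 CPM in R4 (SD; log2 -0.31 ± 0.12, adjusted p = 0.0380), as did et, ken and Su(var)2-10. The call of Stat92E was lost in 14 of 20 alternatives, among them without R4 at passage 5, 7, 9 or 11 and without R5 at passage 7 or 8 (adjusted p = 0.0512 to 0.127, edgeR). The number of JAK/STAT genes that fell was 1 without R5 at passage 7, and 2 without R5 at passage 8 or R4 at passage 7, 9 or 11.

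Of 21 Wnt pathway genes, 8 rose and 3 fell (median log2 0.06), a called share of 52.4% beside 37.7% of all genes tested. The ligands wingless (wg) and Wnt6, neighbours on 2L, rose together. wg had 58.5, 36.8 and 53.0 CPM in R5, against 8.06, 3.40, 2.21, 0.793 and 0.654 CPM in R4, and Wnt6 had 52.5, 31.8 and 40.1 CPM in R5, against 10.2, 3.80, 2.13, 0.505 and 0.0934 CPM in R4. Within R4 both were highest at passage 5 and lower at each later passage, and all R5 libraries were above them. The log2 differences were 4.00 ± 0.68 for wg and 3.60 ± 0.75 for Wnt6 (adjusted p = 6.42e-05 and 0.000515, edgeR), and without R4 at passage 5 they were 4.80 and 4.65. Wnt4, the receptors fz, fz2 and fz3, and the inhibitors Axn and nkd also rose. The coreceptor arrow (arr) fell, with 135, 188 and 112 CPM in R5, against 504, 513, 497, 469.8 and 570.4 CPM in R4 (log2 -1.82 ± 0.30, adjusted p = 4.78e-05), as did arm and drl.

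Of 26 EGF receptor and ERK genes tested, 2 rose and 10 fell, with a median log2 difference of -0.16. Their called share was 46.2%, beside 37.7% of all genes tested. With passage as a replicate block 3 rose and 4 fell, and with passages 6 and 7 alone 1 rose and 1 fell. Those that fell were kek1, pnt, aop, Sos, drk, Dsor1, rl, ksr, Mkp3 and edl. kekkon 1 (kek1), a target and inhibitor of the receptor, had 159.7, 231 and 214 CPM in R5, against 378, 402, 407, 425 and 489 CPM in R4 (log2 -1.06 ± 0.14, adjusted p = 2.02e-06, edgeR). The small GTPase Ras85D, which links the receptor to the kinase cascade, rose, with 1280.2, 1219.5 and 1071 CPM in R5, against 639, 694, 591, 640.5 and 712 CPM in R4 (log2 0.86 ± 0.15, adjusted p = 8.38e-05). The ligand vein (vn) rose too, with 72.0, 36.9 and 61.0 CPM in R5, against 42.1, 24.8, 23.1, 25.7 and 20.6 CPM in R4 (log2 1.05 ± 0.29, adjusted p = 0.00567), a call lost without R5 at passage 6 (adjusted p = 0.0532). Egfr itself was low and not called, with 8.24, 6.75 and 7.11 CPM in R5, against 15.7, 9.38, 7.11, 7.71 and 11.4 CPM in R4 (log2 -0.48 ± 0.36, adjusted p = 0.319).

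Of 21 Notch pathway genes, 6 rose and 2 fell (median log2 0.03), a called share of 38.1% beside 37.7% of all genes tested. The ligand Delta had 109.5, 88.0 and 119 CPM in R5, against 35.01, 27.5, 30.0, 30.6 and 38.5 CPM in R4 (log2 1.71 ± 0.22, adjusted p = 2.02e-06, edgeR), and the targets E(spl)mbeta-HLH, E(spl)mgamma-HLH, E(spl)m2-BFM and E(spl)m3-HLH and the corepressor H rose with it. The receptor Notch (N) was not called, with 406, 396 and 441 CPM in R5, against 385, 494, 454, 463 and 543 CPM in R4 (log2 -0.17 ± 0.11, adjusted p = 0.246). Su(H) and mam, which carry the Notch signal to DNA, fell.

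Of 18 BMP genes, 6 rose (dpp, gbb, put, dally, bi and cv-2) and 6 fell (tkv, sax, Mad, Med, tld and tok; median log2 -0.13). The metalloprotease tolkin (tok), which frees BMP ligands, had 19.4, 19.3 and 12.9 CPM in R5, against 54.3, 76.0, 75.05, 68.4 and 130.4 CPM in R4 (log2 -2.23 ± 0.41, adjusted p = 0.000163, edgeR), and was not called when passage 4 was counted as intermediate (log2 -1.10, adjusted p = 0.0646). Of 11 Hedgehog genes, 2 rose (ptc and Su(fu)) and 3 fell (smo, ci and boi; median log2 -0.13). The pathway's transcription factor ci had 763 ± 38.4 CPM in R5 and 1066 ± 82.8 CPM in R4 (SD; log2 -0.48 ± 0.14). Of 10 FGF and PDGF/VEGF genes, 3 rose (htl, bnl and Pvf2) and 3 fell (ths, Pvr and Pvf1; median log2 0.02). Of 17 Hippo genes, 3 rose and 2 fell (median 0.02). Of 19 insulin and TOR genes, 4 rose and 4 fell (median 0.06), with 2 that fell without R4 at passage 5, 7 or 11 or without R5 at passage 8. Of 17 ecdysone genes, 3 rose and 6 fell (median -0.35).

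DNA replication genes fell together. Of 20 tested, 15 fell, with a median log2 difference of -0.43. None rose in edgeR's fit, nor at an unadjusted p under 0.05, nor by limma or DESeq2. The 15 were Mcm2, Mcm3, Mcm5, Mcm6, Mcm7, dup, Orc1, E2f1, E2f2, PCNA, RnrL, RnrS, Cdc45, PolE1 and geminin. Mcm2, a subunit of the replicative helicase, had 115, 114 and 104 CPM in R5, against 174, 176, 195, 183 and 202 CPM in R4 (log2 -0.74 ± 0.11, adjusted p = 9.81e-06). Mcm7, of the same complex, had 95.7, 114 and 89.6 CPM in R5, against 155, 158, 176, 178 and 208 CPM in R4 (log2 -0.81 ± 0.14, adjusted p = 6.64e-05). R5 lay below R4 in every library of both genes. The summed level of the list was 2300 to 2391 CPM in R5 and 3038 to 3603 CPM in R4, without overlap. The R1 means were 122 CPM and 101 CPM, near those of R5. The number that fell was between 11 and 16 in the alternatives other than the fit of passages 6 and 7 alone, where it was 2.

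Mitosis genes followed less evenly: 13 of 28 fell (median log2 -0.20), among them CycB, Cdk1, polo, fzy and BubR1. That is 46.4% called, all lower, beside 37.7% of all genes called and 18.9% called lower. Anillin (scra), which builds the contractile ring, had 258, 232 and 239.6 CPM in R5, against 363, 329.8, 383, 394 and 388 CPM in R4 (log2 -0.61 ± 0.08, adjusted p = 3.89e-06, edgeR), and the centromere protein Cenp-C had 125, 123 and 112 CPM in R5, against 158, 169, 185, 179 and 204 CPM in R4 (log2 -0.57 ± 0.11, adjusted p = 0.000153). In the 9-group fit no mitosis gene rose by edgeR, limma or DESeq2, nor at an unadjusted p under 0.05 in edgeR, while 1 rose and 11 fell in the fit of the 8 libraries alone and 2 rose and 5 fell with passage as a replicate block. The number that fell was 8 without R5 at passage 6 and 6 with R4 limited to passages 5 to 7. Of 18 Polycomb group genes, 1 rose and 6 fell (Sce, E(z), escl, pho, phol and Scm), with a median log2 of -0.14. Their called share was 38.9%, near the 37.7% of all genes tested. Without R4 at passage 11 or without R5 at passage 8, 3 fell. Of 15 cell death genes, 2 rose and 5 fell (median -0.23), a called share of 46.7%. The TNF ligand eiger (egr) had 18.1, 48.0 and 20.9 CPM in R5, against 88.7, 107, 116, 176 and 187 CPM in R4 (log2 -2.22 ± 0.41, adjusted p = 0.000172, edgeR), and hid, which frees caspases, had 30.5, 29.4 and 29.1 CPM in R5, against 56.5, 53.0, 63.8, 66.1 and 95.5 CPM in R4 (log2 -1.17 ± 0.23, adjusted p = 0.000356).

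Of 19 septate junction genes, 12 rose and 2 fell (median log2 0.49), and of 15 integrin adhesion genes, 8 rose (median 0.38). Their called shares were 73.7% and 53.3%, beside 37.7% of all genes tested. Of 11 polarity and adherens junction genes, 5 fell (shg, arm, alpha-Cat, p120ctn and baz), with a median of -0.20. The called share of the polarity list was 45.5%, near that of all genes, and its median was 0.08 at late passages. In the 9-group fit no integrin gene fell and no polarity gene rose by edgeR, limma or DESeq2, nor at an unadjusted p under 0.05 in edgeR. A single polarity gene rose in the fit of the 8 libraries alone, where 5 fell, and in that of passages 6 and 7 alone, where 1 fell. Neuroglian (Nrg), the L1-type protein of septate junctions and axons, had 850.2, 793 and 807 CPM in R5, against 216, 183, 171, 179 and 199 CPM in R4 (log2 2.11 ± 0.14, adjusted p = 5.81e-11, edgeR). The other septate genes that rose were cora, Nrx-IV, kune, sinu, pck, Lac, Cont, Gli, crim, cold and crok. bark beetle (bark), of tricellular junctions, fell, averaging 72.1 ± 7.01 CPM in R5 and 249 ± 41.8 CPM in R4 (SD; log2 -1.79 ± 0.27), as did scrib, averaging 293 ± 23.2 CPM in R5 and 482 ± 46.8 CPM in R4 (log2 -0.71 ± 0.11).

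The integrin subunit inflated (if) had 313, 232 and 289.9 CPM in R5, against 108, 96.9, 76.9, 68.1 and 108 CPM in R4 (log2 1.60 ± 0.17, adjusted p = 1.04e-07, edgeR), and ItgaPS5, another integrin subunit, rose too, as did rhea, stck, Ilk, Vinc, Pax and by, which link integrins to actin. Bazooka (baz), the Par3 polarity protein, had 127, 103 and 102 CPM in R5, against 368, 231, 257, 284 and 165 CPM in R4 (log2 -1.24 ± 0.21, adjusted p = 4.81e-05). Of 13 basement membrane genes, 3 rose and 1 fell (median log2 0.41), a called share of 30.8% beside 37.7% of all genes tested. Laminin gamma, LanB2, had 863, 533 and 668 CPM in R5, against 279, 266, 275, 298 and 336 CPM in R4 (log2 1.24 ± 0.19, adjusted p = 2.06e-05). The matrix protease Mmp1, 1 of 3 genes tested in its list, averaged 439 ± 48.0 CPM in R5 and 218 ± 77.7 CPM in R4 (SD; log2 1.01 ± 0.29), and the list median was -0.16.

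Of 26 guidance and surface adhesion genes tested, 3 rose and 7 fell (median log2 -0.33), beside 18.8% and 18.9% of all genes tested. The counts were 2 and 5 without R5 at passage 6. The netrin ligands fell: NetA had 39.1, 59.3 and 30.8 CPM in R5, against 259, 164, 137, 172 and 155 CPM in R4 (log2 -2.04 ± 0.32, adjusted p = 1.96e-05, edgeR), and NetB fell with it. The netrin receptor unc-5 rose, with 394, 309.5 and 319 CPM in R5, against 123, 127, 162, 177 and 176 CPM in R4 (log2 1.16 ± 0.13, adjusted p = 2.73e-07). Amalgam (Ama), a secreted immunoglobulin protein that binds neurotactin, rose, with 43.4, 115 and 75.2 CPM in R5, against 3.34, 3.40, 4.74, 7.35 and 9.62 CPM in R4 (log2 3.78 ± 0.44, adjusted p = 4.51e-07). Slit (sli) and its receptor robo2 fell, as did Fas3, caps and trn.

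Of 23 neuron genes, 6 rose (para, cac, Syx1A, Rbp9, futsch and Appl) and 2 fell (median log2 0.07). Their called share was 34.8%, beside 37.7% of all genes tested. The calcium channel cacophony (cac) had 19.4, 29.6 and 30.2 CPM in R5, against 5.01, 5.50, 6.79, 6.56 and 6.54 CPM in R4 (log2 2.12 ± 0.25, adjusted p = 5.6e-07, edgeR), and the microtubule protein futsch had 517, 234 and 414 CPM in R5, against 100.4, 87.3, 86.2, 117 and 77.0 CPM in R4 (log2 2.05 ± 0.30, adjusted p = 1.08e-05). Among the defining neuron markers, elav stood at 152 to 188 CPM in R5 and 172 to 197 CPM in R4, while nSyb, Syt1 and brp were under 4 CPM in every library. Of 11 glia genes, 3 fell (Gs2, Eaat1 and wrapper; median 0.11). In the 9-group fit none rose by edgeR, limma or DESeq2, and 1 did at an unadjusted p under 0.05 in edgeR. This depended on the samples: 5 rose and 2 fell with passage 4 counted as intermediate, 2 rose and 2 fell with the passage block, and 1 rose in the fit of the 8 libraries alone, with R4 limited to passages 5 to 7, or without R5 at passage 7. The glutamate transporter Eaat1 had 5.29, 9.76 and 3.99 CPM in R5, against 87.6, 90.8, 41.4, 24.1 and 14.2 CPM in R4, lower in R4 from passage 7 on (log2 -3.03 ± 0.56, adjusted p = 0.000172). Gs2, which makes glutamine from glutamate, averaged 2.88 ± 0.834 CPM in R5 and 12.6 ± 6.90 CPM in R4 (SD; log2 -2.13 ± 0.48). Of the glia markers, repo was under 1 CPM in every library and alrm reached at most 2.70 CPM in R5 and 1.45 CPM in R4. nrv2 and moody were well detected, nrv2 at 376 to 389.6 CPM in R5 and 309.8 to 398 CPM in R4, and moody at no less than 55.0 CPM in R5 and 49.0 CPM in R4.

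Of 27 piRNA pathway and germline genes, 10 rose and 2 fell (median log2 0.25). Their called share was 44.4%, beside 37.7% of all genes tested. AGO3, the Piwi protein of the ping-pong cycle, had 90.9, 71.3 and 77.4 CPM in R5, against 24.3, 17.5, 20.7, 19.96 and 11.9 CPM in R4 (log2 2.08 ± 0.46, adjusted p = 0.00106, edgeR). rhino (rhi), which marks piRNA clusters in the germline, had 6.02, 2.63 and 3.45 CPM in R5, against 0.508, 0.728, 0.736, 0.432 and 0.187 CPM in R4 (log2 2.92 ± 0.44, adjusted p = 1.49e-05), and the germline repressor nanos had 7.75, 3.38 and 10.5 CPM in R5, against 1.31, 0.889, 0.736, 1.37 and 0.374 CPM in R4 (log2 2.91 ± 0.49, adjusted p = 5.59e-05). With passage 4 counted as intermediate the log2 difference of nanos was 1.59 (adjusted p = 0.0327). The R5 libraries were above all R4 libraries for each of these 3 genes. The germline marker bam stood at 1.72 to 3.75 CPM in R5 and 1.15 to 4.50 CPM in R4. fs(1)Yb, shu, krimp, bgcn, spn-E, mael and squ rose, and osk and gcl fell.

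Of 13 dosage compensation and sex determination genes, 4 rose (roX1, Sxl, tra and fru) and 3 fell (msl-1, msl-3 and tra2; median log2 -0.03). The noncoding RNA roX1, a scaffold of the complex that raises expression from the male X, had 1224, 1845 and 1687 CPM in R5, against 709.7, 713, 694, 721 and 988 CPM in R4 (log2 1.05 ± 0.24, adjusted p = 0.00109, edgeR). roX2, its partner, had 205, 411 and 288 CPM in R5, against 308, 397, 362, 379 and 438 CPM in R4, with overlap between the lines, and was not called (log2 -0.32 ± 0.20, adjusted p = 0.210). Without R5 at passage 7 roX2 was called lower in R5 (log2 -0.61, adjusted p = 0.027). None of the listed Y-linked genes reached the level needed for a test, and the 1 gene tested that the annotation places on the Y was not called (log2 0.48).

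Among immune genes, 1 of 11 antimicrobial peptide genes was called, AttD, which fell (median log2 -0.38), and of 22 Toll and Imd genes 5 rose and 6 fell (median -0.08), which was 3 and 3 without R5 at passage 6. Of 9 fat body genes, Lsd-1 rose and Mtp fell (median -0.59), and of the fat body markers Fbp1 and Lsp2 were under 1 CPM in every library and fon under 2 CPM, while apolpp stood at 9.27 to 14.5 CPM in R5 and 8.03 to 12.8 CPM in R4. Of 13 trachea and epidermis genes, 3 rose and 2 fell (median 0.36). Of 3 gut genes, srp and Hnf4 fell (median -0.60). Of 13 chitinase family genes, 4 rose and 1 fell (median 0.15), and of 16 cuticle protein genes, 4 rose and 2 fell (median 1.06). The Osiris list had 3 tested genes and 1 call, Osi2, which rose (median -2.42). Called shares were 9.09% for antimicrobial peptides, 22.2% for fat body and 38.5% for trachea and epidermis. They were 38.5% for chitinases and 37.5% for cuticle proteins, beside 37.7% of all genes tested.

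Of 14 glycolysis genes, 4 fell (median log2 -0.23). In the 9-group fit none rose by edgeR, limma or DESeq2, nor at an unadjusted p under 0.05 in edgeR, and without R4 at passage 6 the count was 1 that rose and 3 that fell. Trehalase (Treh), which supplies glucose from trehalose, had 49.3, 43.9 and 40.5 CPM in R5, against 194, 138, 132, 123 and 85.3 CPM in R4 (log2 -1.59 ± 0.23, adjusted p = 1.09e-05, edgeR). Of 11 heat shock genes, 1 rose and 3 fell (median -0.50). Of 88 cytosolic ribosomal protein genes, 7 rose and 12 fell (median -0.04). Without R5 at passage 6, 7 or 8 the number that fell was 7, 19 or 4, and without passage 8 the number that rose was 4. Of 72 mitochondrial ribosomal protein genes, 13 rose and 2 fell (median 0.12). Of 15 genes of the mitochondrial genome, 1 rose and 1 fell (median -0.22). Counts of 3 or fewer in these and the other lists often moved by 1 to 3 when 1 library was left out.

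Small nucleolar RNA genes and their hosts, 157 in all, gave 34 calls higher and 19 lower (median log2 0.08). The called share was 33.8%, beside 37.7% of all genes tested. The balance depended on single libraries: without R5 at passage 7, 16 were higher and 28 lower. Without R5 at passage 6, 27 were higher and 10 lower, and without R5 at passage 8, 37 were higher and 7 lower. The host gene Uhg1 had 490.4, 518 and 497 CPM in R5, against 48.4, 73.7, 57.6, 48.9 and 69.3 CPM in R4 (log2 3.08 ± 0.25, adjusted p = 1.57e-09, edgeR), and Uhg2, Uhg4, Uhg5 and Uhg8 rose with it. Uhg1 stood at 64.3 CPM in R1, near R4. Its model holds snoRNA genes, so reads of host and snoRNA cannot be told apart with certainty.

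The same contrast was examined at the early and late passages, which are other libraries of the same cultures. At passages 2 to 4, 74 genes (0.806%) were called between R5 and R4. Of these, 65 were called in the same direction at intermediate passages, which is 87.8% of the early calls and 1.88% of the intermediate ones. At passages 16 to 19, 3130 genes (34.1%) were called. In the same direction at both stages were 1772, which is 51.2% of the intermediate and 56.6% of the late calls, and 46 were called in opposite directions. Called the same way at all 3 stages were 55 genes, 31 higher and 24 lower in R5.

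The change of the difference itself was tested. Between early and intermediate it was called for 384 genes (4.18%), 251 of them toward R5 and 133 toward R4. Between late and intermediate it was called for 495 (5.39%), 269 with a higher R5 to R4 ratio at intermediate and 226 with a lower one. Of the 1635 genes called at intermediate passages alone, 46 differed by both tests, so for most of the 1635 a difference between stages was not shown. Without R5 at passage 6 the number for early was 245 and that for late 267, and without R5 at passage 8 that for early was 218.

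Some of the largest line differences were there from the start. Fam92 had a log2 difference of 6.90 ± 0.63 at early passages and 6.49 ± 0.60 at late ones, and no difference between stages was called (adjusted p = 0.788 against early and 0.545 against late, edgeR). Uhg1 was likewise higher at early (1.82 ± 0.28) and late passages (2.50 ± 0.29).

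Others arose between early and intermediate passages. Those given here were named for a large intermediate difference, which favours such a change. klg had 1.30 ± 0.45 at early passages, where it was not called, and 5.10 ± 0.48 at late ones, and the intermediate difference exceeded the early one by 4.73 (adjusted p = 0.000136, edgeR). firl had 0.04 ± 0.63 at early and -5.36 ± 0.70 at late passages (adjusted p = 0.000688 against early). CG33465, PPO1 and PPO2 were called at intermediate but not at early passages, where their log2 differences were -0.71 ± 0.70, 1.10 ± 1.05 and 0.91 ± 0.94, and the stages differed (adjusted p = 0.00271, 0.0105 and 0.00790). At late passages PPO1 averaged 71.3 CPM in R5 and 89.5 CPM in R4, where its difference was smaller than at intermediate passages (adjusted p = 0.0309).

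Another set stood furthest apart at the intermediate stage. Genes such as unpg and Antp were named for a large intermediate difference, which favours this outcome in the tests. unpg had 2.09 ± 0.34 at early and 3.46 ± 0.37 at late passages, and the intermediate difference was larger than both (adjusted p = 4.94e-05 and 0.00267, edgeR). Antp (2.62 ± 0.43 and 2.47 ± 0.42; adjusted p = 0.00543 and 0.00296) and Nrg (0.69 ± 0.16 and 1.06 ± 0.16; 0.000401 and 0.00386) likewise had a larger intermediate difference than at both other stages. chinmo had 0.96 ± 0.59 at early and 1.45 ± 0.60 at late passages, called at neither, with a larger intermediate difference than both (adjusted p = 0.0146 and 0.0325). At late passages chinmo averaged 1008 CPM in R5 and 369 CPM in R4. eya averaged 11.5 CPM in R5 and 26.3 CPM in R4 at late passages, a log2 difference of -1.20 ± 0.49 that was not called (adjusted p = 0.0614, edgeR). Its intermediate and late differences differed (adjusted p = 2.73e-05, edgeR).

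The netrin receptor gene unc-5, higher in R5 at early (0.71 ± 0.15) and intermediate passages, was lower in R5 at late ones (-0.93 ± 0.15; adjusted p for the difference between stages = 1.12e-06, edgeR). NetA, lower at intermediate passages, had 0.17 ± 0.33 at late ones (adjusted p = 0.00446). NetB had -0.57 ± 0.41 at late passages, and its difference between the stages was not called (adjusted p = 0.513). The mesodermal genes twi and htl, higher in R5 at intermediate passages, had -1.21 ± 0.52 and -0.55 ± 0.40 at late ones. Neither late difference was called (adjusted p = 0.0739 and 0.308, edgeR). The difference between stages was called for both (adjusted p = 0.0310 and 0.0327, edgeR). DNA replication genes had a median log2 difference of -0.01 at early and -0.36 at late passages, septate junction genes 0.15 and 0.68, and temporal identity genes 0.47 and 0.28.

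**Figure D4:**
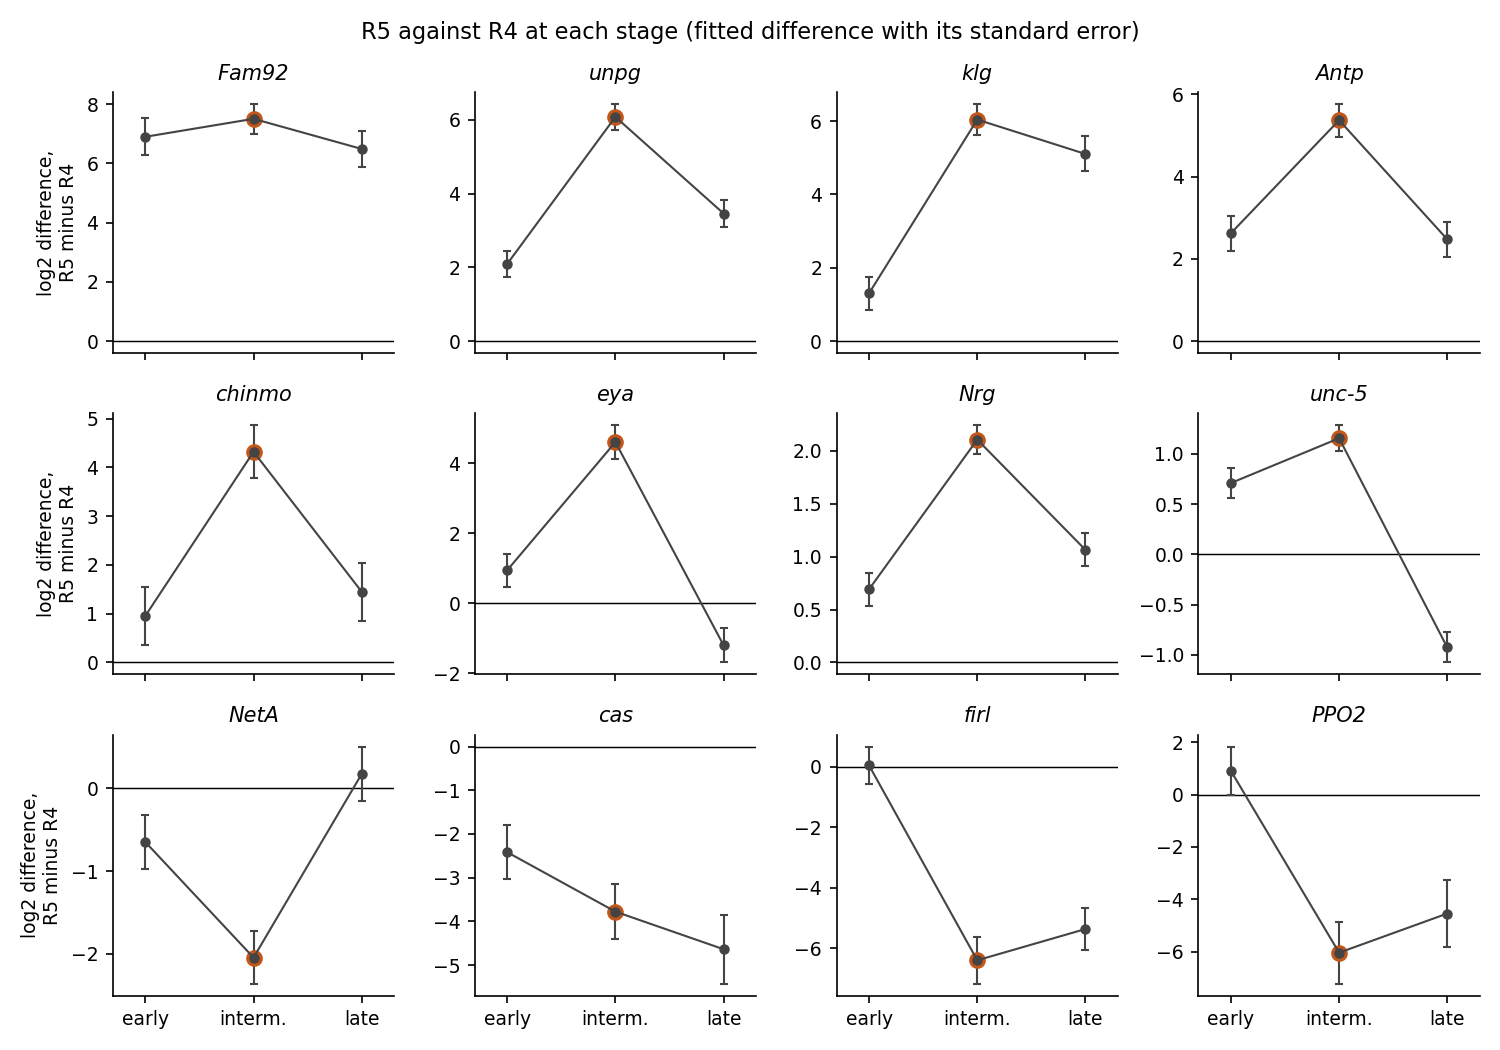
Fitted log2 difference between R5 and R4 with its standard error at the early, intermediate (orange) and late stage for 12 genes. Fam92 and cas lie on one side of 0 at all 3 stages, firl and PPO2 leave 0 after the early stage, chinmo and eya peak at the intermediate stage, and unc-5 changes side at the late stage.

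By chromosome arm the median log2 difference was near 0: 0.02 on X, -0.08 on 2L, -0.06 on 2R, 0.01 on 3L and 0.03 on 3R. The small chromosome 4 had the lowest median of the nuclear arms, with 6 genes higher and 26 lower of 81 tested and a median of -0.17, beside -0.06 at early and -0.32 at late passages. Arms and gene order are those of the BDGP6.54 annotation, used without its coordinates.

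One stretch of 3L differed as a block. The arm's first 300 tested genes from the tip, mthl8 to Drs, had a median log2 difference of 0.35 at intermediate passages, with 239 genes (79.7%) above 0, 146 (48.7%) called higher and 10 (3.33%) called lower. The 1439 other tested genes of the arm had a median of -0.05, with 228 (15.8%) called higher and 296 (20.6%) called lower. This stretch was chosen after its values were seen, so the numbers are a description without a test. In windows of 25 genes, all 12 windows inside it had medians of 0.16 to 0.49, and the 8 that follow it had -0.14 to 0.20. At early passages the median of the stretch was 0.03 and at late ones 0.46. Among the genes given above with values, sls lies in it, and genes named above without values were not checked for this.

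By library, the median of the 300 genes relative to the mean of the 9 early libraries was 0.389, 0.405 and 0.497 in R5 at passages 6, 7 and 8, and 0.722, 0.596 and 0.588 at passages 16, 17 and 19. In R4 it was 0.054 to 0.114 at intermediate and 0.14 to 0.194 at late passages. R1 lay between the lines at intermediate passages, with 0.152 to 0.337, and had 0.118, 0.115 and 0.242 at passages 16, 17 and 19, so 2 of its 3 late libraries were below those of R4. The rest of the arm moved between -0.056 and 0.036 in the intermediate libraries of R5 and between -0.004 and 0.043 in those of R4. DNA was not measured, and the part of gene copy number was not tested.

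**Figure D5:**
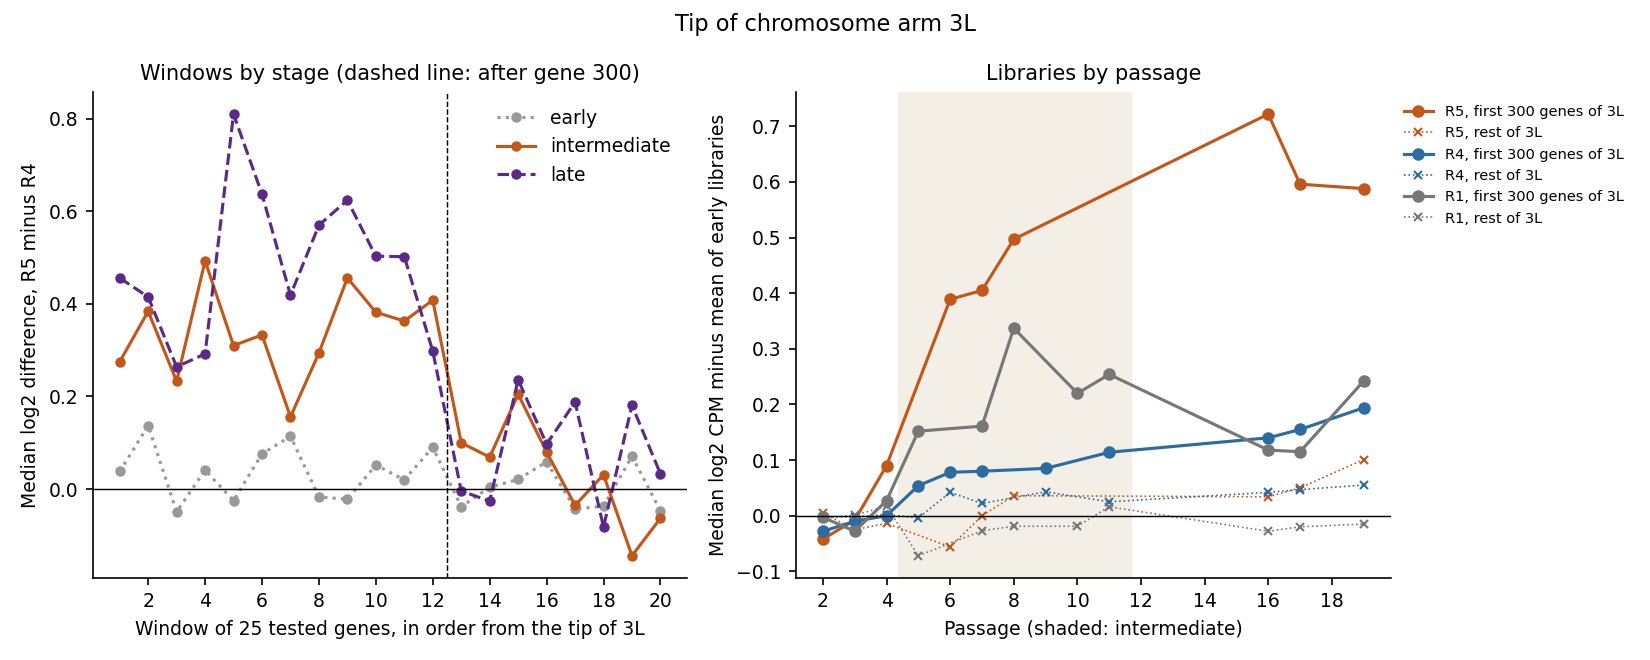
Left, median log2 difference between R5 and R4 in windows of 25 consecutive tested genes from the tip of 3L at each stage; right, median log2 CPM of the first 300 genes (circles) and of the rest of the arm (crosses) in each library relative to the mean of the early libraries, by passage, R5 in orange, R4 in blue and R1 in grey, intermediate passages shaded. R5 reaches 0.389 to 0.497 at intermediate and 0.588 to 0.722 at late passages, R4 stays at or below 0.194, and the left panel falls to 0.10 in the first window after gene 300 at intermediate passages.

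Among the called genes, 6 had no read in one of the lines. CG13033, CG43618 and Osi2 had 31, 29 and 14 reads in R5 and none in R4, and were at least 25.7-fold, 24.0-fold and 11.6-fold higher in R5 against a floor of 3 reads over the R4 libraries. TfAP-2, c-cup and Mur18B had none in R5 and 85, 68 and 51 reads in R4, and were at least 11.4-fold, 9.11-fold and 6.83-fold lower in R5 against 3 reads over the R5 libraries. The floors cover counting error only. A further 20 tested genes had no read in R5 and 5 none in R4 without being called.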

How the data were processed

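RNA sequencing gene counts were analysed from 8 libraries, 3 of R5 and 5 of R4, within a fit of 31 libraries of the series. Per the submitters' processing notes, the authors' tools were TopHat 1.4.1, Bowtie 0.12.8 and bedtools, with genome build BDGP5 (dm3). The sources used here give no counting tool, annotation release or strand setting. The deposited unit is whole-number counts per gene, not normalized. Each file holds 15253 entries, of which 2 name no gene and took 0.0123 to 0.0187% of the counts. They were left out.

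Symbols were taken from reference tables by gene ID (9370), locus tag (5002) or synonym (95) and otherwise from the files, and 377 genes matched none. Chromosome arms and gene order came from the BDGP6.54 annotation. Genes with at least 1 CPM in at least 3 of the 31 libraries were tested, 9177 of 15251. The model had 9 groups, line by stage, with 22 residual degrees of freedom, and was fitted with edgeR 4.0.16 (TMM, quasi-likelihood F-test, Benjamini-Hochberg adjustment) in R 4.3.3. R4 at passage 12 had no labelled stage and was left out. DESeq2 1.42.0, limma 3.58.1 and other scalings, filters and sample sets were tried as alternatives. The fitting script was tested on simulated data.

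Passage numbers did not pair the lines. The members, the 48 gene lists and the comparisons were chosen with earlier results of these data known. Genes given with values are the 10 of largest change in each direction with a mean of at least 10 CPM and no overlap between the lines, up to 2 called members per list and direction of largest change with a mean of at least 2 CPM in the higher line, and tj, twi, Mef2, Egfr, N, roX1, roX2, chinmo, abd-A and Ubx whatever their values. Of the 165 genes this names, 88 are given with values. Dfd, Abd-B, NimC1, Hml, Pvr, Imp, Syp, upd3 and AGO3 were named outside that rule after their values were seen. Counts per library set the precision, and intervals and floors cover counting error only.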

Additional observations from a re-analysis of the deposited data

Results flagged for a closer look

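For 34 of the genes given with values, the difference between R5 and R4 itself changed between the early and the intermediate passages by edgeR's quasi-likelihood test (adjusted p under 0.05). Most of these genes were named for their large difference at intermediate passages, so their share is not comparable with the 4.18% of all genes. Values here are the log2 difference at intermediate passages minus that at early ones, so a positive value means a shift toward R5. The largest shifts toward R5 were 6.22 for Cpr11A, 5.15 for atilla, 4.73 for klg, 4.37 for slou, 4.17 for Abd-B and 4.16 for Him. unpg shifted by 3.98, nanos by 3.67, eya by 3.66, wg by 3.50, chinmo by 3.37, oc by 2.84, Antp by 2.75, Ama by 2.64 and rhi by 2.40. Smaller shifts toward R5 were 2.07 for upd2, 1.74 for upd3, 1.43 for cac, 1.41 for Nrg, 1.23 for mamo, 1.16 for Delta and 1.04 for if. Toward R4 shifted the crystal cell genes PPO1 by -7.33 and PPO2 by -6.95, followed by firl at -6.43, CG33465 at -5.74, Eaat1 at -2.97, Dr at -2.32, egr at -2.10 and Treh at -1.40. The shifts of kek1, Mcm2, scra and exd were -0.69, -0.57, -0.47 and -0.34.

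Between the late and the intermediate passages the difference changed for 20 of these genes, and the same limit holds beside the 5.39% of all genes. The R5 to R4 ratio was higher at intermediate than at late passages by a log2 of 5.81 for eya, 3.08 for Ama, 2.92 for tok, 2.90 for Antp, 2.87 for chinmo, 2.63 for Scr and 2.62 for unpg. It was higher by 2.53 for twi, 2.42 for oc, 2.08 for unc-5, 1.95 for htl, 1.72 for cac, 1.43 for mamo, 1.04 for Nrg, 0.90 for if and 0.53 for Imp. It was lower at intermediate passages for PPO1, at -5.90, Gs2, at -2.39, NetA, at -2.22, and baz, at -1.32.

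In 9 of the 97 genes, 1 R4 library lay apart from the other R4 libraries by Dixon's test at the 95% level. Chance alone gives such a library in about 1 in 20 groups. R4 at passage 5 stood apart for frac (1.31 CPM, against 0.374 to 0.566 in the others), tj (19.1 CPM), NetA (259 CPM) and vn (42.1 CPM, against 20.6 to 25.7 in the others), each time on the high side. R4 at passage 6 was high for Lcp3, at 52.2 CPM, and low for eya, at 1.13 CPM. R4 at passage 11 was high for Scr (14.9 CPM), roX1 (988 CPM, against 694 to 721 in the others) and tok (130.4 CPM). In each of these genes other than tj and vn, every R5 library lay outside the range of the R4 libraries, the outlying one included.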

How the results depend on the processing

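Of the 90 called genes given with values, 80 kept direction and call in every alternative other than the fit of passages 6 and 7 alone, and 73 in that fit too. Over 1937 recomputed gene values, 1878 kept both, 52 lost the call, 2 gained one and 5 changed sign. The 5 were abd-A at -0.61 and tj at -1.28 without R5 at passage 6 (leaving out 1 library gave -0.61 to 2.79 for abd-A and -1.28 to 1.85 for tj), tj at -0.16 with R4 limited to passages 5 to 7, and Ubx at 0.46 and Egfr at 0.44 with passage 4 counted as intermediate. None of these genes was called in the main fit. With passage as a replicate block abd-A was called higher in R5 (log2 2.10, adjusted p = 0.0172, edgeR). The counts of genes higher and lower in R5 were 1766 and 1661 with median of ratios factors, 1710 and 1649 with total counts, 1742 and 1790 by limma and 1800 and 1735 by DESeq2. Leaving out 1 library gave 2670 to 3306 calls in all, 1353 to 1671 higher and 1283 to 1635 lower. In those fits the tests of a change between stages ranged over 218 to 498 genes for early and 267 to 560 for late. By limma they gave 359 and 572 genes. The median of all genes moved by less than 0.01 between scalings.

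Passage number as a replicate block was no true pairing, since same-passage libraries of the lines deviated with r = -0.062 at passage 6 and -0.09 at passage 7. With the block 2894 genes were called, 1468 higher and 1426 lower. Passages 6 and 7 alone with the block, with 1 residual degree of freedom, gave 831 calls, 510 higher and 321 lower. That fit holds 4 of the 8 libraries. Of 940 list medians, 48 moved by more than the spread between libraries. In 20 lists the median changed sign in at least 1 alternative.

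No label names more than 1 culture of a line, so line, culture and passage history cannot be told apart. R5 libraries were shallower than those of R4, and genes below about 1 CPM rest on a few reads per library.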

Other observations

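Of the 46 genes called in opposite directions at the intermediate and late passages, 28 were higher in R5 first and lower later. The other 18 went the other way round. All 46 were also called in the test between these stages, which calls in opposite directions make nearly certain. The genes named here were chosen after their values were seen. twit averaged 6.64 CPM in R5 and 1.29 CPM in R4 at intermediate passages, and 1.14 CPM in R5 and 13.1 CPM in R4 at late ones, with log2 differences of 2.36 ± 0.57 and -3.52 ± 0.70 (SE). At higher level, sano averaged 326 CPM in R5 and 157 CPM in R4 at intermediate passages, and 233 CPM in R5 and 490.1 CPM in R4 at late ones. The netrin receptor unc-5 had nearly the same values, at 341 CPM in R5 and 153 CPM in R4, and later 242 CPM in R5 and 459.8 CPM in R4.

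In the other direction, the collagen gene Mp (Multiplexin) averaged 58.6 CPM in R5 and 119 CPM in R4 at intermediate passages, and 287 CPM in R5 and 101 CPM in R4 at late ones. The matrix gene Tsp (Thrombospondin) averaged 8.91 CPM in R5 and 22.8 CPM in R4, and later 50.9 CPM in R5 and 18.1 CPM in R4. Fas3, an adhesion protein of septate junctions, averaged 138 CPM in R5 and 201 CPM in R4, and later 209 CPM in R5 and 99.6 CPM in R4. The fatty acid synthase gene FASN2 averaged 13.9 CPM in R5 and 32.4 CPM in R4, and later 31.8 CPM in R5 and 6.78 CPM in R4. For these genes the mean levels of the lines thus changed places between passages 5 to 11 and passages 16 to 19. The spread between libraries was wide for some, with an SD of 43.7 CPM for Tsp in R5 at late passages. It was 5.78 CPM for twit in R5 at intermediate passages. For FASN2 it was 15.9 CPM in R4 at intermediate and in R5 at late passages.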
